A study of Mus musculus with 2 samples.

Results

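Gas6, Pros1, Axl, Mertk and Tyro3 were followed through single-cell transcriptomes of mouse lung fibroblastic stroma. They are the 2 ligands and 3 receptors of the TAM system, chosen by name, and all 5 were found among the 21014 genes of both deposited tables. The stroma came from C57Bl/6J mice fed a high fat diet for 16 weeks (HFD, 1 library) or normal chow for 16 weeks (NC, 1 library), and was profiled with a droplet kit that reads the 3′ ends of transcripts. How many animals were used, and their age and sex, is not stated in the labels. A single library stands for each diet, so no test was made, and each difference is one between libraries.

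Gas6 and protein S, the product of Pros1, are vitamin K-dependent proteins that bind phosphatidylserine on dying cells with one end and a TAM receptor with the other. Tyro3, Axl and Mertk are receptor tyrosine kinases that carry this signal into the cell. They are best known in macrophages, where they take part in the uptake of dying cells and restrain inflammatory signalling. Gas6 binds all of the receptors, whereas protein S binds Tyro3 and Mertk but not Axl.

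Cells were kept from 500 genes upward and up to a mitochondrial share of 10%, which left 6089 in HFD and 8140 in NC, with medians of 10045 counts per cell in HFD and 7524 in NC. The authors' annotation gives 5 classes. Asc1 fibroblasts, named for the product of Slc7a10, numbered 3092 in HFD and 3999 in NC. The HFD library held 1095 Gas6 fibroblasts, 796 Pi16 fibroblasts and 510 myofibroblasts, and the NC library 2002, 1222 and 667 of these classes. The class labelled pericytes held 596 HFD and 250 NC cells. It carried the smooth muscle genes Acta2 (12769 CPM in HFD, 12126 CPM in NC) and Myh11 (2878 CPM in HFD, 2369 CPM in NC), and its 5 smooth muscle markers together summed to 27187 CPM in HFD and 26296 CPM in NC. The 6 pericyte markers were detected too and summed to 393 CPM in HFD and 297 CPM in NC, against 98.7 CPM in HFD and 82.2 CPM in NC pooled fibroblasts. Of these, Cspg4, Notch3, Pdgfrb and Cox4i2 were above the pooled fibroblasts in both libraries, and Higd1b and Lamc3 below them. With genes of both cell types present, the class name is used here as a label only. All 5 fibroblast markers were detected in every class. The 4 alveolar fibroblast markers summed to 9651 CPM in HFD and 7636 CPM in NC Asc1 fibroblasts, and to 7174 CPM in HFD and 5259 CPM in NC Gas6 fibroblasts. These classes are called alveolar here. In Pi16 fibroblasts that sum was 2830 CPM in HFD and 2283 CPM in NC. Of the markers of other cell types, Pecam1, Epcam, Sftpc, Msln, Ptprc and Cd3e were at 0 in both libraries, and others were not. Over all kept cells the epithelial markers summed to 30.1 CPM in HFD and 24.2 CPM in NC, of which Scgb1a1, a secretory airway cell gene, made up 26.9 CPM in HFD and 21.7 CPM in NC. The endothelial sum was 1.41 CPM in HFD and 1.53 CPM in NC, the mesothelial sum 1.86 CPM in HFD and 2.99 CPM in NC, and the lymphocyte sum 0.718 CPM in HFD and 2.65 CPM in NC. Of the cell barcodes, 16 of the kept ones occurred in both libraries. A level is the summed count of a gene in a class, scaled to the same class total (CPM). Intervals are 95% and cover counting error only. They were computed on effective counts, which are the counts divided by 4.85 in HFD and 3.98 in NC, because single cells gave several counts of a gene at once. A gene was called measured from 50 effective counts over both libraries, and higher or lower by size from a ratio of 1.5 in either direction.

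Per kilobase of transcript, Gas6 had the highest level of the 5 genes in every class of both libraries, although in plain CPM Pros1 was above it in myofibroblasts. Its level was not the same in all classes. In HFD it stood at 279 CPM in Pi16 fibroblasts (interval 254 to 305) and 250.3 CPM in Gas6 fibroblasts. Next were myofibroblasts with 128 CPM, the class labelled pericytes with 116 CPM and Asc1 fibroblasts with 106 CPM. In NC, Gas6 fibroblasts came first with 309 CPM, then Pi16 fibroblasts with 277 CPM (256 to 299). Asc1 fibroblasts followed with 128 CPM, myofibroblasts with 119.8 CPM and the class labelled pericytes with 101 CPM. In both libraries the Gas6 and Pi16 classes stood above the other 3 classes, with intervals apart, and the intervals of the other 3 overlapped those of their neighbours in this order. The Gas6 class bears this gene's name, so its high level is a description. The Pi16 class does not, and its Gas6 level was close to that of the Gas6 class. The level in Gas6 fibroblasts over that in Pi16 fibroblasts was 0.898 in HFD (0.805 to 1.003) and 1.11 in NC (1.02 to 1.22). Pi16 fibroblasts are marked by Pi16, a gene of adventitial fibroblasts around vessels and airways. Summed over cells, the Gas6 class held 40.5% of HFD and 55.5% of NC Gas6 counts, and the Pi16 class 19.7% in HFD and 17.4% in NC. Of the kept cells, the Gas6 class made up 18.0% in HFD and 24.6% in NC, and the Pi16 class 13.1% and 15.0%.

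Gas6 stood below NC in the alveolar classes of the HFD library, and at or above NC in the other classes. In those other classes the interval of the ratio included 1, and the difference between classes was not tested. The ratio of HFD over NC was 0.811 in Gas6 fibroblasts (0.751 to 0.875) and 0.829 in Asc1 fibroblasts (0.743 to 0.923). In Pi16 fibroblasts the ratio was 1.01 (0.892 to 1.13), in myofibroblasts 1.07 (0.801 to 1.43) and in the class labelled pericytes 1.15 (0.926 to 1.44). No Gas6 ratio reached the size of 1.5. Of all genes tested, 17.6% had a lower ratio than Gas6 in Gas6 fibroblasts and 19.4% in Asc1 fibroblasts. Over the 4 fibroblast classes pooled, Gas6 stood at 181 CPM in HFD and 224 CPM in NC (ratio 0.808, 0.766 to 0.852). This pooled value moved with the mix of classes, and was 0.916 when the classes were weighted equally. After every cell was thinned to 2000 counts, 28.7% of HFD and 32.4% of NC Gas6 fibroblasts had a Gas6 count, against 60.4% in HFD and 61.3% in NC before thinning. In Pi16 fibroblasts these thinned shares were 27.8% in HFD and 28.1% in NC. Among Gas6 fibroblasts with a count, the median Gas6 level per cell was 337 CPM in HFD and 373 CPM in NC. Exons of Gas6 overlap those of Tmem255b on the opposite strand in the annotation, and Tmem255b had 4 counts in HFD and 0 in NC.

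Pros1 was highest in myofibroblasts and Gas6 fibroblasts and lowest in the class labelled pericytes. In HFD its level was 144 CPM in myofibroblasts, 137 CPM in Gas6 fibroblasts, 98.2 CPM in Pi16 fibroblasts, 95.2 CPM in Asc1 fibroblasts and 48.3 CPM in the class labelled pericytes. In NC the values in the same order of classes were 151, 156, 102.8, 105 and 47.2 CPM. Myofibroblasts and Gas6 fibroblasts did not differ beyond their intervals in either library, nor did the Pi16 and Asc1 classes. The class labelled pericytes lay below every other class, and Pros1 in Gas6 fibroblasts was 2.82 times its level there in HFD (2.33 to 3.44) and 3.30 times in NC (2.50 to 4.45). On diet, the Pros1 ratio was 0.878 in the pooled fibroblasts (0.819 to 0.941), where the levels were 113 CPM in HFD and 128 CPM in NC. In single classes it was 0.876 in Gas6 fibroblasts (0.788 to 0.972), 0.906 in Asc1, 0.955 in Pi16, 0.957 in myofibroblasts and 1.02 in the class labelled pericytes. Outside the Gas6 class the intervals of these single-class ratios included 1.

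**Figure D1:**
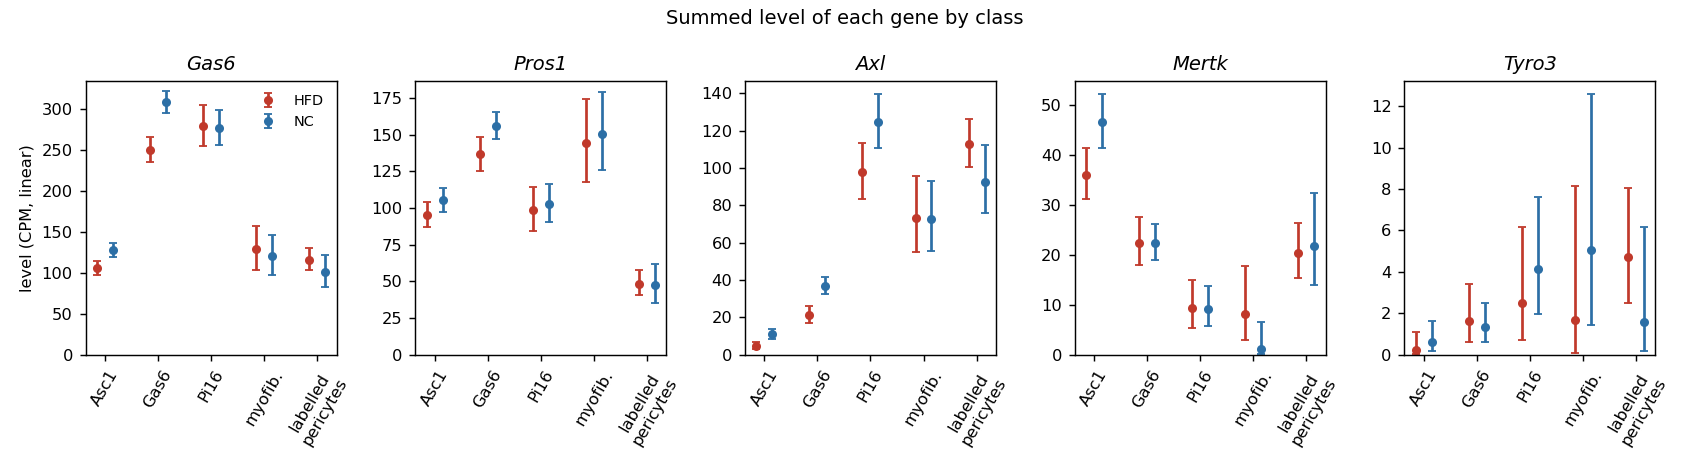
Summed level (CPM, linear axis from 0, scaled per panel) of Gas6, Pros1, Axl, Mertk and Tyro3 in the 5 annotated classes, HFD in red left of NC in blue. Points are 1 library each and bars are 95% intervals of counting error. Axl is lowest in the Asc1 class (4.58 CPM in HFD, 10.9 CPM in NC), where Mertk is highest (36.0 CPM in HFD, 46.5 CPM in NC).

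Of the receptors, Axl and Mertk followed opposite class patterns, and for that reason their promoters are shown. The windows run from 250 bases before to 50 bases after the gene start, come from RefSeq on GRCm38.p6, and are given 5′ to 3′ on the gene's strand. Axl lies at chr7:25788684-25788983 on the minus strand and Mertk at chr2:128698665-128698964 on the plus strand. The deposited tables were made on another build and hold no coordinates. Capitals mark every match to GGGCGG (a GC box) on either strand and, in Axl, to GGAATG (a TEAD site).
Axl: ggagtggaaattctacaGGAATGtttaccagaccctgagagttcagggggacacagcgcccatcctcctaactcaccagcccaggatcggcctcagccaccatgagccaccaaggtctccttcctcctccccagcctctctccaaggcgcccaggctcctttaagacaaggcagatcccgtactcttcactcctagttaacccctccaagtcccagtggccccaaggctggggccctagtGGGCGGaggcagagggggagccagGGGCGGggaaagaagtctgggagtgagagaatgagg
Mertk: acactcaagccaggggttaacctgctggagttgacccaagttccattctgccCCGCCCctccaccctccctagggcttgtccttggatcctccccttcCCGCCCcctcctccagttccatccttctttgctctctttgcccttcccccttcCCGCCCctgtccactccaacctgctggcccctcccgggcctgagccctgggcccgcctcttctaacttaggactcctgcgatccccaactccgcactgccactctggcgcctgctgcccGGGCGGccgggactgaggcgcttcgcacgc
The Axl window holds 2 GC boxes and the TEAD match, which starts at position -233 from the gene start, and the Mertk window holds 4 GC boxes. Of 32851 promoter windows of this length, 35.7% hold a GC box and 14.7% hold GGAATG. All 5 genes have a GC box, with 4 in Gas6, 5 in Pros1 and 6 in Tyro3, some of them overlapping. Their GC content was 60.3% for Axl, 66.0% for Mertk, 58.3% for Gas6, 66.7% for Pros1 and 73.3% for Tyro3, against a median of 52.7% over all windows. AGAACA, a glucocorticoid receptor half-site found in 18.97% of windows, had 1 match, in Tyro3. A TATA box (TATAAA, in 13.6% of all windows), a CCAAT box (in 37.4%), an AP-1 site (TGANTCA, in 7.81%) and an E-box (CACGTG, in 7.15%) were also searched on both strands, and had no match in the 5 windows. These matches are letters in a window and say nothing of binding.

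Axl was high in the class labelled pericytes, in Pi16 fibroblasts and in myofibroblasts, and low in the alveolar classes. In HFD its level was 113 CPM in the class labelled pericytes (101 to 126) and 97.6 CPM in Pi16 fibroblasts (83.5 to 113). Myofibroblasts had 73.2 CPM (54.9 to 95.6), Gas6 fibroblasts 21.2 CPM (16.9 to 26.2) and Asc1 fibroblasts 4.58 CPM (2.96 to 6.77). In NC its level was 92.7 CPM in the class labelled pericytes (75.7 to 112.5) and 125 CPM in Pi16 fibroblasts (111 to 139.8). Myofibroblasts had 72.5 CPM (55.5 to 93.1), Gas6 fibroblasts 36.9 CPM (32.5 to 41.7) and Asc1 fibroblasts 10.9 CPM (8.49 to 13.8). Neighbours among the 3 high classes overlapped, and the Gas6 and Asc1 classes were each apart from the class above them. The highest class exceeded the Asc1 class 24.7 times in HFD and 11.5 times in NC.

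On diet, Axl was lower by size in Asc1 and in Gas6 fibroblasts of the HFD library. Its HFD over NC ratio was 0.421 in Asc1 fibroblasts (0.255 to 0.673) and 0.573 in Gas6 fibroblasts (0.443 to 0.736). Axl was the single member past 1.5-fold among the 4 measured in the Asc1 class, where 10.3% of all genes tested were past it in either direction and 5.46% were lower. The same held in the Gas6 class, where 12% of genes were past 1.5-fold and 5.91% were lower. Of all genes tested, 0.506% had a lower ratio than Axl in Asc1 fibroblasts and 2.64% in Gas6 fibroblasts. In Pi16 fibroblasts the ratio was 0.782 (0.644 to 0.948), in myofibroblasts 1.01 (0.686 to 1.48) and in the class labelled pericytes 1.22 (0.972 to 1.54). No measured member passed 1.5-fold in these 3 classes, where 11.6%, 15.6% and 18.2% of genes did.

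A smaller share of alveolar fibroblasts had an Axl count in the HFD library. At 2000 counts per cell, 0.842% of HFD and 1.56% of NC Asc1 fibroblasts had an Axl count (26 of 3089 HFD and 62 of 3975 NC cells). The intervals, 0.551 to 1.23% in HFD and 1.198 to 1.995% in NC, just overlap. Without thinning the shares were 1.46% in HFD and 2.85% in NC. In Gas6 fibroblasts the thinned shares were 2.47% in HFD (1.63 to 3.57%) and 4.995% in NC (4.08 to 6.04%), with intervals apart. Among Asc1 fibroblasts with a count, the median Axl level per cell, without thinning, was 318 CPM in HFD and 290 CPM in NC. Among such Gas6 fibroblasts it was 177 CPM in HFD and 144 CPM in NC. Such Asc1 fibroblasts held a mean of 2.69 Axl counts in HFD and 2.44 in NC, and such Gas6 fibroblasts 3.76 in HFD and 2.96 in NC. Genes seen in 0.1 to 1% of cells had a median of 3.25 in HFD and 2.66 in NC. So near this floor, the median levels cannot show whether Axl per cell differed. In HFD, 10 cells held 47.1% of the Axl counts of the Asc1 class, against 22.3% in NC. A finer column of the annotation sets apart an SNAT2 subset of Asc1 fibroblasts, with 245 HFD and 359 NC cells. There Axl stood at 39.6 CPM in HFD and 27.1 CPM in NC, from 14 HFD and 13 NC cells with a count. Relative to the other Asc1 fibroblasts, Axl was 12.8 times as high in HFD and 2.68 times in NC, and Mertk 1.94 and 1.23 times. In the same order, Gas6 was at 1.70 and 1.52 times, and Pros1 at 1.57 and 1.40 times. In NC the Mertk and Pros1 intervals included 1. So Axl and Mertk did not go opposite ways here. Cells of the subset held fewer counts (medians of 4009 in HFD and 3037 in NC, against 8747 and 6631 in the others). Mitochondrial genes took 6.27% (HFD) and 6.44% (NC) at the median. Without that subset, Axl was at 3.08 CPM in HFD and 10.1 CPM in NC Asc1 fibroblasts (ratio 0.305, 0.164 to 0.534), and 10.6% of the genes tested were past 1.5-fold in these cells.

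Free RNA in droplets can give low counts in cells that do not use a gene, so the Axl level in Asc1 fibroblasts was set beside markers of other classes. Axl stood there at 4.69% of its Pi16 class level in HFD and 8.73% in NC. The 4 adventitial markers summed to 4.997% of their Pi16 class level in HFD and 4.86% in NC, and single ones lay between 0.817% for Ly6a and 17.2% for Cd34 in HFD, and between 0 for Dpp4 and 19.2% for Cd34 in NC. Relative to the class labelled pericytes, Axl was at 4.05% in HFD and 11.7% in NC. The 5 smooth muscle markers summed to 1.66% in HFD and 2.34% in NC on that scale, with single ones between 0.420% for Myh11 and 3.96% for Des in HFD, and between 0.291% for Myh11 and 4.98% for Tagln in NC. Axl lay within the span of the adventitial markers in both libraries, where only Cd34 was above it. On the scale of the class labelled pericytes it lay above every smooth muscle marker in both libraries. The part of free RNA in the Asc1 level of Axl was not tested. Some other marker sums moved with Axl, and others went the other way. In Gas6 fibroblasts the 4 adventitial markers summed to 222 CPM in HFD and 317 CPM in NC, and the 5 smooth muscle markers to 311 CPM in HFD and 446 CPM in NC. The myofibroblast markers there summed to 181 CPM in HFD and 130 CPM in NC, and the pericyte markers to 69.1 CPM in HFD and 62.6 CPM in NC. In Asc1 fibroblasts the adventitial sum was 85.3 CPM in HFD and 85.5 CPM in NC, and the smooth muscle sum 451 CPM in HFD and 616 CPM in NC. The myofibroblast sum in Asc1 fibroblasts was 69.6 CPM in HFD and 78.1 CPM in NC, and the pericyte sum 36.1 CPM in HFD and 53.2 CPM in NC. Their part in the Axl values was not tested.

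Pooled over the 4 fibroblast classes, Axl stood at 28.0 CPM in HFD and 41.3 CPM in NC, a ratio of 0.678 (0.593 to 0.774) that lies just inside the 1.5-fold limit. None of the 4 measured members passed that limit in the pooled fibroblasts, where 10.2% of 13422 genes did. Over all kept cells Axl was at 43.8 CPM in HFD and 44.5 CPM in NC (ratio 0.984, 0.885 to 1.09). The class labelled pericytes, with 9.79% of HFD and 3.07% of NC cells, held 48.0% of the Axl counts in HFD and 13.1% in NC.

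**Figure D2:**
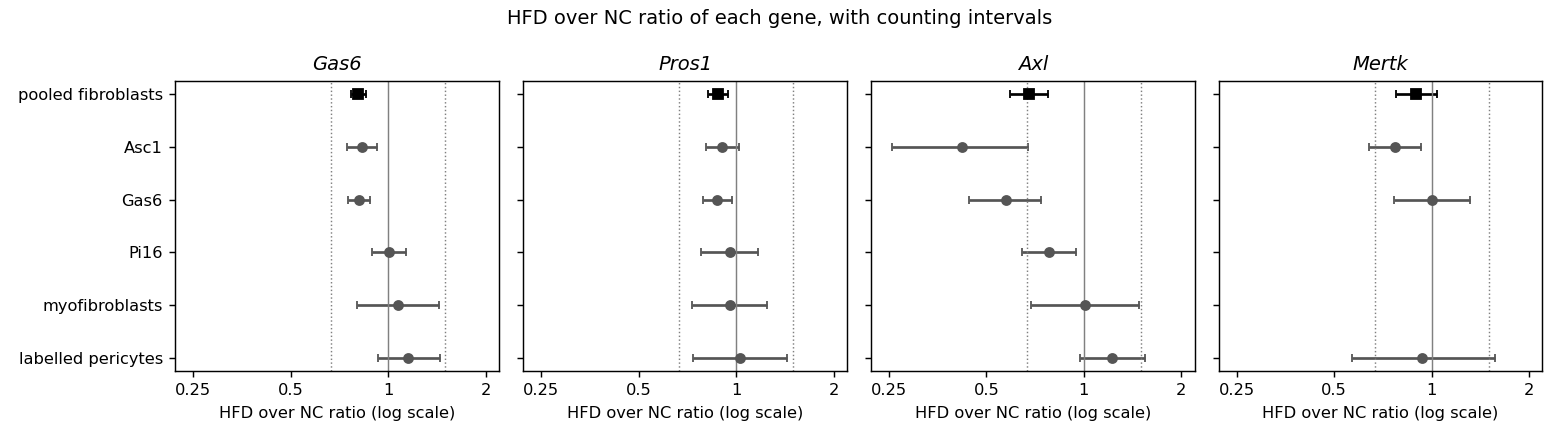
HFD over NC ratio (log axis) of the 4 genes with enough counts, in the pooled fibroblasts (squares) and single classes (circles), with 95% intervals of counting error. The solid line is 1 and the dotted lines are 1.5-fold in either direction. Axl lies at 0.421 in Asc1 and 0.573 in Gas6 fibroblasts and at 1.22 in the class labelled pericytes, and Mertk is left out in Pi16 fibroblasts and myofibroblasts, where it was not measured.

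Mertk was highest where Axl was lowest. In HFD its level was 36.0 CPM in Asc1 fibroblasts (31.1 to 41.4), 22.4 CPM in Gas6 fibroblasts (18.0 to 27.5), 20.3 CPM in the class labelled pericytes (15.3 to 26.4), 9.22 CPM in Pi16 fibroblasts (5.28 to 15.0) and 8.17 CPM in myofibroblasts (2.99 to 17.8). The values in NC were 46.5 CPM in Asc1 fibroblasts (41.4 to 52.1), 22.3 CPM in Gas6 fibroblasts (18.9 to 26.1), 21.8 CPM in the class labelled pericytes (14.0 to 32.4), 9.09 CPM in Pi16 fibroblasts (5.67 to 13.8) and 1.19 CPM in myofibroblasts (0.0305 to 6.61). In both libraries the Asc1 class stood apart from the rest, the Gas6 class and the class labelled pericytes overlapped, and the Pi16 class and myofibroblasts overlapped below them. Asc1 fibroblasts held 54.0% of all Mertk counts in HFD and 60.01% in NC. The Mertk level in Pi16 fibroblasts was 25.6% of that in Asc1 fibroblasts in HFD and 19.5% in NC. The 4 alveolar markers summed to 29.3% in HFD and 29.9% in NC on that scale, with single ones between 2.77% for Slc7a10 and 36.0% for Inmt in HFD, and between 1.76% for Slc7a10 and 38.4% for Inmt in NC. In NC myofibroblasts Mertk had 4 counts in 3 cells, at 2.56% of its Asc1 level, and the alveolar markers summed to 4.30% of theirs. In HFD myofibroblasts Mertk was at 22.7% of its Asc1 level, from 29 counts in 7 cells, and the alveolar markers at 3.51%. The highest single marker was Ces1d, at 12.8% in HFD and 17.8% in NC myofibroblasts.

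The Mertk ratio of HFD over NC was 0.774 in Asc1 fibroblasts (0.643 to 0.9296), 1.01 in Gas6 fibroblasts (0.766 to 1.31) and 0.931 in the class labelled pericytes (0.567 to 1.57). It was 0.898 in the pooled fibroblasts (0.776 to 1.04), with 25.8 CPM in HFD and 28.7 CPM in NC. None reached 1.5-fold. At 2000 counts per cell, 5.15% of HFD and 6.19% of NC Asc1 fibroblasts had a Mertk count. HFD myofibroblasts had 29 Mertk counts in 7 cells, against 4 counts in 3 NC cells, which is too few for a ratio. The macrophage markers in these myofibroblasts summed to 87.0 CPM in HFD and 6.54 CPM in NC. A single HFD cell held 260 of the 309 macrophage marker counts there, and 1 of the 7 cells with Mertk also had such a marker, holding 3 of the 29 counts.

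Macrophages use Mertk and Axl, so the macrophage markers were followed in all kept cells. Of 8 markers 7 were in the tables, and they summed to 16.9 CPM in HFD and 15.7 CPM in NC. Adgre1 and Marco had no count in HFD, and in NC they had 3 and 1 counts. The other markers were detected in both libraries. Lyz2 had 605 counts in HFD and 291 in NC, and Cd68 506 in HFD and 731 in NC. Csf1r had 64 in HFD and 37 in NC, C1qa 17 in HFD and 15 in NC, and Mrc1 10 in HFD and 22 in NC. Cells with any macrophage marker held 5.74% of Mertk counts in HFD and 8.54% in NC, against 5.68% of all counts in HFD and 6.22% in NC. For Axl the shares were 5.24% in HFD and 4.40% in NC.

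Tyro3 was close to the lower limit of detection. All kept cells together held 126 Tyro3 counts in 33 HFD cells and 115 counts in 32 NC cells. The levels were 1.77 CPM in HFD and 1.64 CPM in NC (ratio 1.08, 0.610 to 1.90). This ratio mixes classes, and the class labelled pericytes held 49.2% of the Tyro3 counts in HFD and 6.09% in NC. The pooled fibroblasts had 64 Tyro3 counts in HFD and 108 in NC, too few for a ratio. In single classes its level ran between 0.227 CPM in Asc1 fibroblasts and 4.69 CPM in the class labelled pericytes in HFD, and between 0.627 CPM in Asc1 fibroblasts and 5.05 CPM in myofibroblasts in NC. Neighbours in both orders overlapped, and no class held enough counts for a ratio. In the SNAT2 subset Tyro3 had 0 counts in either library, where the interval on effective counts reaches up to 16.5 CPM in HFD and 12.5 CPM in NC.

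**Figure D3:**
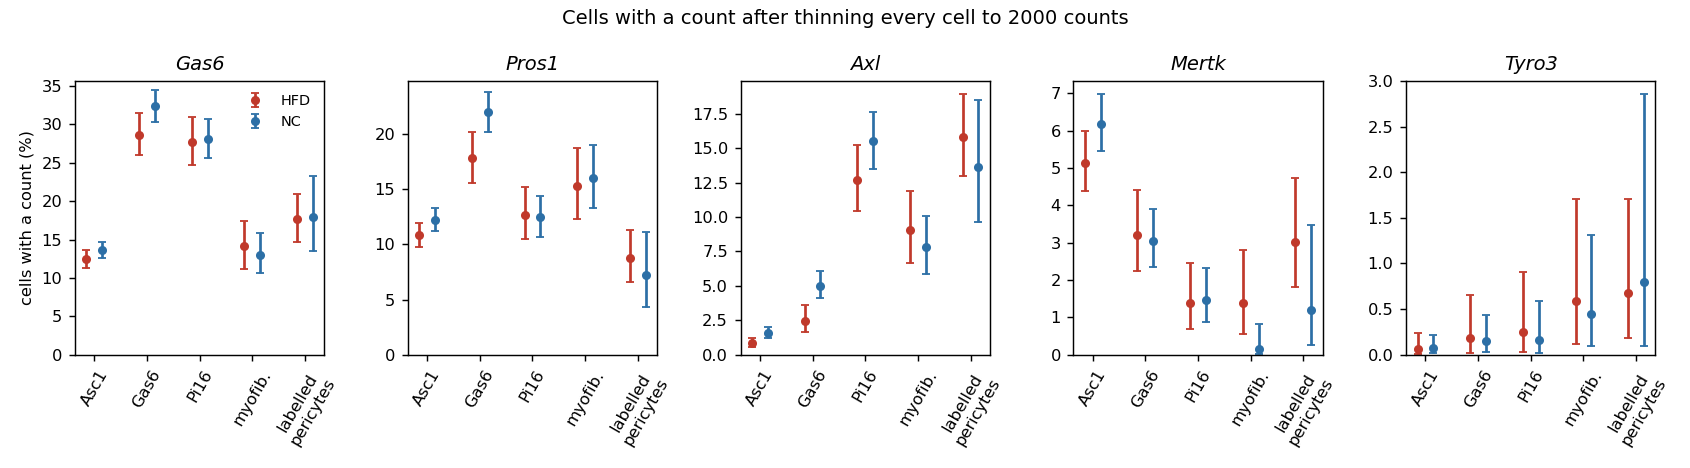
Share of cells (%, linear axis from 0, scaled per panel) with a count of each gene after every cell was thinned to 2000 counts, HFD in red left of NC in blue, with exact 95% Clopper-Pearson intervals. Depth is equal in every cell here, and the class order of Axl, from 0.842% of Asc1 fibroblasts to 15.8% of the class labelled pericytes in HFD, is that of the summed levels.

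The makeup of the receptors by class was compared per kilobase of the longest annotated transcript, 4.27 kb for Axl, 4.30 kb for Mertk and 4.46 kb for Tyro3. Because the kit reads 3′ ends, the plain CPM values above are the other scale to read, and between receptors of such like lengths the scales differ little. Per kilobase, Axl made up 11.3% of the receptor sum in HFD and 18.9% in NC Asc1 fibroblasts, and 47.1% in HFD and 61.3% in NC Gas6 fibroblasts. In Pi16 fibroblasts it made up 89.5% in HFD and 90.6% in NC, in myofibroblasts 88.3% in HFD and 92.3% in NC, and in the class labelled pericytes 82.1% in HFD and 80.1% in NC. Mertk made up 88.1% in HFD and 80.0% in NC Asc1 fibroblasts. Tyro3 made up at most 6.15%, in NC myofibroblasts. In Gas6 fibroblasts the larger receptor was Mertk in HFD, at 5.20 CPM per kilobase beside 4.96 for Axl with overlapping intervals, and Axl in NC, at 8.65 CPM per kilobase beside 5.17 for Mertk.

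Ligand transcripts exceeded receptor transcripts in every class, by both scales. The ligand sum over the receptor sum, both per kilobase, was 13.3 in HFD and 11.9 in NC Gas6 fibroblasts, 7.41 in HFD and 6.06 in NC Asc1 fibroblasts, and 5.44 in HFD and 4.33 in NC Pi16 fibroblasts. It was 4.84 in HFD and 5.03 in NC myofibroblasts, and lowest in the class labelled pericytes, at 1.86 in HFD and 1.98 in NC. The ligand transcripts are shorter than those of the receptors, and with 3′ counting the division by length may raise this ratio. In plain CPM it was 8.57 in HFD and 7.68 in NC Gas6 fibroblasts, 4.92 in HFD and 4.01 in NC Asc1 fibroblasts, 3.45 in HFD and 2.75 in NC Pi16 fibroblasts, 3.28 in HFD and 3.43 in NC myofibroblasts, and 1.19 in HFD and 1.27 in NC of the class labelled pericytes. Gas6 made up 50.7 to 78.6% of the ligand sum per kilobase over the classes and libraries.

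**Figure D4:**
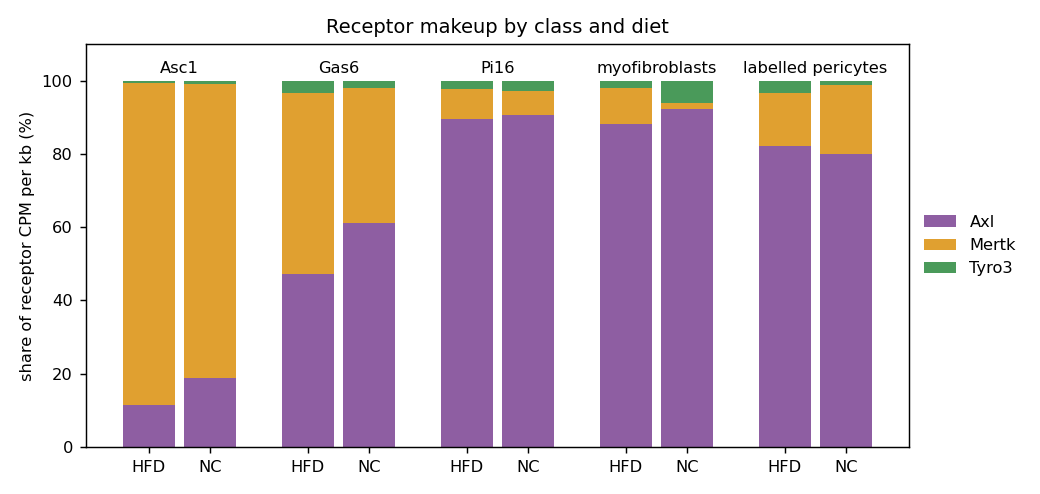
Share of the summed receptor level per kilobase (%, from 0) that Axl, Mertk and Tyro3 make up in each class, with the HFD bar left of the NC bar and 1 library per bar. Mertk fills 88.1% of the HFD and 80.0% of the NC bar of Asc1 fibroblasts, and Axl most of the bars of Pi16 fibroblasts, myofibroblasts and the class labelled pericytes.

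Pairs of members were also counted in single cells, beside the number that the product of their separate shares gives. At 2000 counts per cell, 4 of 5490 HFD and 5 of 7865 NC pooled fibroblasts had both Axl and Mertk, against products of 7.72 HFD and 16.7 NC cells. Within classes these numbers were small and lay on both sides of the product. They were 1 HFD and 3 NC Asc1 fibroblasts (products 1.34 and 3.84), and 0 HFD and 1 NC Gas6 fibroblasts (0.863 and 3.05). For Pi16 fibroblasts they were 2 HFD and 1 NC (1.40 and 2.79), and for the class labelled pericytes 6 HFD and 1 NC (2.84 and 0.408). Gas6 and Axl were in the same cell in 51 HFD and 106 NC pooled fibroblasts, against products of 36.1 HFD and 83.0 NC cells. Within Pi16 fibroblasts, where both are high, Gas6 and Axl shared 30 HFD and 50 NC cells, against products of 28.0 HFD and 53.1 NC cells. Gas6 and Pros1 shared 165 HFD and 298 NC pooled fibroblasts, against products of 128 HFD and 244 NC cells. Within Asc1 fibroblasts they shared 52 HFD and 84 NC cells (products 41.6 and 66.4). Within Gas6 fibroblasts they shared 70 HFD and 160 NC cells (products 55.9 and 142). In the other classes the numbers were smaller and lay on both sides of the product. The pooled counts mix classes of unlike levels, and the cells are of 1 library each, so these are descriptions.

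The class patterns of other genes were set beside those of the members by Pearson correlation of log2(CPM + 10) over the 10 sums of 5 classes in 2 libraries. These points share libraries and depth, and the values are descriptions. Among 6596 genes, the patterns most like that of Gas6 were those of C4b (r = 0.965), a complement gene, Mgp (0.953), another vitamin K-dependent protein, and Mmp3 (0.948), a matrix protease. For Pros1 they were Spred1 (0.960), Dnm3 (0.959) and Mt1 (0.955), a metallothionein. For Axl they were Fstl1 (0.983), Vcan (0.967), the matrix proteoglycan versican, and Htra1 (0.966), a secreted protease. For Mertk they were Cops3 (0.975), Triap1 (0.966) and Chchd10 (0.961), a mitochondrial protein. Between members, r was -0.70 for Axl and Mertk, 0.45 for Gas6 and Pros1 and 0.15 for Gas6 and Axl. Tyro3 had too few counts for the comparison.

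Around the members, 7 lists of genes for their maturation, shedding, ligand exposure and signalling were followed in the pooled fibroblasts. Of 78 list genes 70 were in the tables and 57 were measured. Of these, 2 were higher and 5 lower by size in the pooled fibroblasts, where 5.45% of all genes tested were higher and 4.75% lower. The median log2 ratio of the measured list genes was -0.02, against 0.02 over all genes tested.

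None of the 6 genes for vitamin K-dependent maturation of the ligands was past 1.5-fold. Vkorc1, the reductase that regenerates vitamin K, stood at 187 CPM in HFD and 195 CPM in NC (ratio 0.963). Ggcx, the carboxylase, had a ratio of 1.13 and Furin, a protease that cuts off the leader peptide, 1.10. Of the other vitamin K-dependent proteins 4 of 12 were measured and 1 was higher, Prrg1, a membrane protein, at 15.5 CPM in HFD and 10.1 CPM in NC (1.53, 1.24 to 1.90). Mgp, the matrix inhibitor of calcification, was at 0.918 and Prrg3 at 1.13. Shedding genes were within 1.5-fold in all 5 cases. Adam17, a protease that cuts Mertk, was at 1.10, Timp3, its inhibitor, at 1.01, and Rhbdf1, a partner needed for its maturation, at 0.770.

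Among the 10 genes of phosphatidylserine exposure, 9 were measured and none was past 1.5-fold. Ano6, a scramblase that exposes the lipid, stood at 53.2 CPM in HFD and 43.3 CPM in NC (1.23, 1.10 to 1.37). Atp11a, a flippase that returns it, was at 0.795 and its partner Tmem30a at 0.925. Of the other bridging molecules and receptors, 10 of 19 were measured, with 1 higher and 3 lower by size. Cd36, a scavenger receptor, was at 5.07 CPM in HFD and 2.18 CPM in NC (2.32, 1.51 to 3.62). Lgals3, the lectin galectin-3, which also binds Mertk, was at 55.3 CPM in HFD and 98.7 CPM in NC (0.561, 0.511 to 0.614). Calr, calreticulin, was at 217 CPM in HFD and 342 CPM in NC (0.633), and Thbs1, thrombospondin, at 2461 CPM in HFD and 3713 CPM in NC (0.663). Mfge8, a bridge between phosphatidylserine and integrins that works beside the TAM ligands, was at 257 CPM in HFD and 211 CPM in NC (1.22, 1.16 to 1.28). It was singled out after its value was seen.

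Downstream of the receptors, 17 of 19 adaptor and engulfment genes were measured and none was past 1.5-fold. Gulp1, an engulfment adaptor, was at 1.22, Nck2 at 1.40 (1.07 to 1.82) and Grb2, an adaptor that binds the phosphorylated receptors, at 1.20. Of the partners of protein S in coagulation, 6 of 7 were measured, none was higher and 2 were lower by size. Plat, tissue plasminogen activator, stood at 119.8 CPM in HFD and 196 CPM in NC (0.611, 0.574 to 0.651). Procr, the receptor of protein C, was at 4.10 CPM in HFD and 6.87 CPM in NC (0.597, 0.418 to 0.842).

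**Figure D5:**
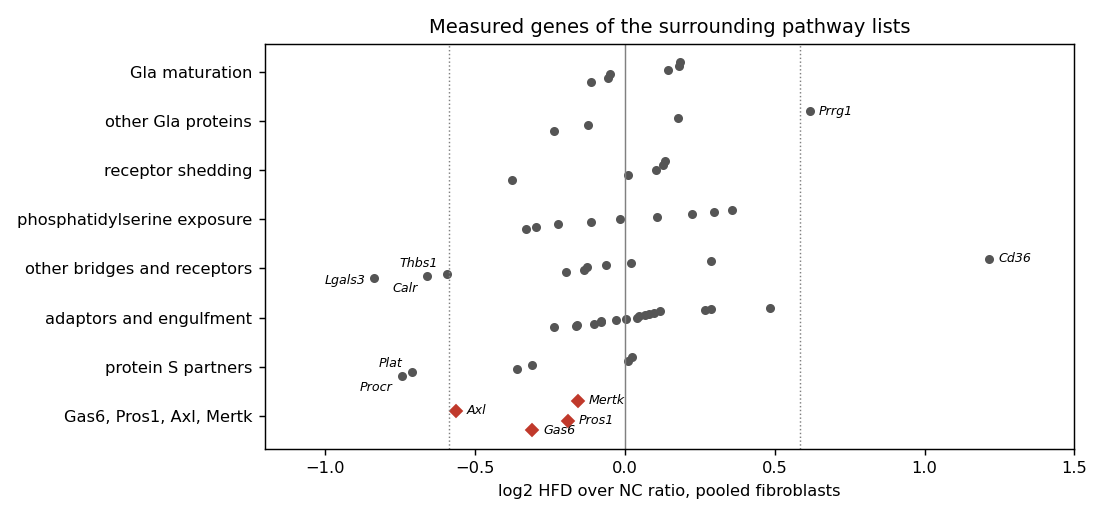
log2 HFD over NC ratio in the pooled fibroblasts for the measured genes of the 7 lists (grey circles, 1 gene each, spread vertically for legibility) and for Gas6, Pros1, Axl and Mertk (red diamonds). The dotted lines are 1.5-fold in either direction. Prrg1 and Cd36 lie to the right of them, and Lgals3, Calr, Thbs1, Plat and Procr to the left.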

How the data were processed

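Single-cell RNA of lung fibroblastic stroma was deposited as 1 table per diet. Reads were aligned with STAR to mm39, per the submitters' processing notes, which give no version. Counting and strand are not given in the sources used here. The headers name no unit, and the sums and steps of the values showed the deposited values to be log2(CPM + 1) per cell. Per the file headers, the tables also hold a total per cell, an estimated count, and the mitochondrial share in percent. Each value was returned to a count with its cell's total and rounded. A whole number (within 0.01) resulted for 98.8% of nonzero values in HFD and 98.96% in NC. Kept cells held 71014948 counts in HFD and 69940474 in NC. The variance factors are medians over genes seen in 0.1 to 1% of cells. A gene name table matched 20180 of the identifiers. In HFD an earlier set of annotation columns was not used, and no doublet caller was run.

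Ratios have exact conditional 95% Poisson intervals and shares exact Clopper-Pearson intervals, covering counting error only. Calls over all genes give the background. The interval code was checked on counts simulated with the same variance factors. That checks the calculation only, and cannot show whether the factors hold for these genes. The members, lists and rules were chosen with earlier results of these data known. All 5 members were named, with the 3 genes of most like class pattern each (at least 200 effective counts and 20 CPM in a sum, no mitochondrially encoded, ribosomal protein, predicted or haemoglobin genes). From each list, up to 3 measured genes whose interval bound lay farthest from 1 were named, and any past 1.5-fold. Python 3.11.15, numpy 2.4.6, scipy 1.17.1, pandas 2.3.3, matplotlib 3.10.9, R 4.3.3 and edgeR 4.0.16 (TMM factors only) were used. Alternatives covered cell filters, deep cells, scaling, weighting, thinning, classes and single cells.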

Additional observations from a re-analysis of the deposited data

Results flagged for a closer look

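The Gas6 ratio of HFD over NC lay on opposite sides of 1 in some classes, with intervals that did not overlap. It was 0.829 in Asc1 and 0.811 in Gas6 fibroblasts, against 1.15 in the class labelled pericytes. The value in Gas6 fibroblasts also stood apart from the 1.01 of Pi16 fibroblasts. The Asc1 interval ended at 0.923, and that of the class labelled pericytes began at 0.926. As a mean over cells of CPM per cell, Gas6 in the class labelled pericytes was 114.5 CPM in HFD and 113.0 CPM in NC, a ratio of 1.01. For Axl, the 0.421 of Asc1 fibroblasts stood apart from the 1.01 of myofibroblasts and from the 1.22 of the class labelled pericytes. The 0.573 of Gas6 fibroblasts and the 0.782 of Pi16 fibroblasts each stood apart from that 1.22 as well. With 1 library per diet, these differences between classes were not tested.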

How the results depend on the processing

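No paired analysis was possible because each diet has 1 library. No ratio past 1.5-fold turned round under any alternative run. The pooled Gas6 ratio was 0.916 with classes weighted equally, 0.891 without the Gas6 class and 0.856 without the Asc1 class. The pooled Axl ratio was 0.802 with equal weights and 0.785 without the Asc1 class, and ran from 0.652 over all alternatives. The number of pooled members past 1.5-fold became 1 (Axl) without the 5% deepest cells, with median of ratios scaling, as a mean over cells, without the 10 cells with most counts, and at a smaller fold rule. Axl in Asc1 fibroblasts ran from 0.287 to 0.552. In Gas6 fibroblasts it ran from 0.437, with cells thinned to 2000 counts, to 0.589. The Pros1 share ratio was 0.945 without thinning. Of 176 values under alternatives for single-class ratios within 1.5-fold, which leaves out the Axl ratios of these 2 classes, 173 stayed within their interval. With a stricter cell filter (from 1000 genes, up to 5% mitochondrial), Gas6 stood at 1.59 and Mertk at 1.97 in the class labelled pericytes, and Mertk there at 2.80 when thinned and at 1.54 without the 10 cells with most counts. With that filter, HFD Axl was highest in Pi16 fibroblasts. Over all alternatives, the ratio in the class labelled pericytes ran from 1.01 to 1.59 for Gas6 and from 1.05 to 1.42 for Axl. Removing cells with barcodes in both libraries, or with markers of other cell types, both chosen after seeing the data, left every call. The causes were not tested. Without replicates, differences between animals cannot be told apart from diet, and Tyro3 and Mertk outside the Asc1 class are limited by depth.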
